A study of Mus musculus with 18 samples.

Results

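The genes described here are interferon response genes: a named list of 36 mouse genes that are switched on when cells sense viral nucleic acid or receive interferon. They were followed in C2C12 cells that had all been infected with a lentivirus. A gene was measured where a probe set (the group of array probes summarised as 1 value) carried its symbol alone, and where several did, the one brightest on average across the 18 arrays stood for the gene. On this rule 33 of the 36 genes were measured, out of 22180 genes in all. The symbol Ddx58 was taken for Rigi. Oas1a and Gbp2 had only probe sets shared with a neighbouring family member, no probe set listed for Ifi44 was found in the annotation used, and none of the 3 entered the tests.

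C2C12 is a mouse myoblast line that fuses into myotubes once growth serum is withdrawn. Cells were moved from 20% fetal bovine serum to 2% horse serum, were infected 36 h into differentiation with a virus that delivers a short hairpin RNA (shRNA), and were collected 48 h after infection. The 3 groups of 6 arrays were a control with a scramble shRNA, cells with an shRNA against Nup210 (a glycoprotein anchored in the nuclear pore membrane), and cells with an shRNA against Mef2c (a transcription factor of the muscle programme). Every group, the control included, was infected, and uninfected cells were not analysed here, so the comparisons are between hairpins and none measures infection itself. Separate cultures are not named in the labels, so p-values reflect only how far these samples spread, and that spread may be technical. In RNA from whole cultures, fewer cells expressing a gene and less RNA per cell cannot be told apart.

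Interferon response genes work as a relay. Cytosolic sensors such as RIG-I and MDA5 bind foreign RNA and trigger the release of type I interferon, which binds its receptor and activates the transcription factor STAT2. With IRF9, STAT2 enters a complex called ISGF3, which binds a short DNA element, the interferon-stimulated response element, ahead of the effector genes. The effectors then bind viral RNA, modify proteins with the ubiquitin-like protein ISG15, or bring peptides to the cell surface for immune recognition. Muscle fibres are known to switch on these genes and MHC class I in inflammatory muscle disease.

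The response element contains a repeated GAAA core, so promoters of the list were searched for GAAA, any 2 bases and GAAA again, on both strands and with overlapping matches counted, in RefSeq windows of 300 bases (250 before to 50 after each gene's start, mouse build GRCm38.p6). The table held 26 of the 36 genes, and 14 of them (53.8%) had a match, against 1079 of all 27025 genes in the table (3.99%). The matches lay in the promoters of Isg15, Ifit1, Ifit3, Bst2, Stat2, Rigi, Ifih1, Eif2ak2, Cxcl10, Rsad2, Oas3, Gbp3, Gbp2 and Oas1a. Of the genes called in the comparisons of the hairpins, Isg15 and Ifit1 had a match and Ifi35 had a window without one. Rtp4, Usp18, Parp14 and Mx1, also called, had no window in the table. Shown here are stretches from Isg15 and Ifit1, and from Ifit3, a nearby relative of Ifit1. Stretches from Bst2, another gene with several matches, and Stat2, part of the complex that binds the element, are also shown. They are printed 5′ to 3′ on the strand of the gene, with the matching letters in capitals, read as GAAA, 2 bases, GAAA or, from the other strand, TTTC, 2 bases, TTTC.
Isg15: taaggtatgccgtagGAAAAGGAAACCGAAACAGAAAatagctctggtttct
Ifit1: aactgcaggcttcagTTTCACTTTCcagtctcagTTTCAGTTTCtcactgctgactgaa
Ifit3: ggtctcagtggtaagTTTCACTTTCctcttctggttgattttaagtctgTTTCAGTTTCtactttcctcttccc
Bst2: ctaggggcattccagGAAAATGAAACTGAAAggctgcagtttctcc
Stat2: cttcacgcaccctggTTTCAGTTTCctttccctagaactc
The Isg15 stretch (chr4:156200860-156200911, minus strand, 93 to 42 bases before the start) held 3 overlapping matches. Ifit1 (chr19:34640770-34640828, plus strand, 119 to 61 bases before the start) and Ifit3 (chr19:34583358-34583431, plus strand, 171 to 98 bases before the start) each held 2 separate matches. Bst2 (chr8:71537572-71537617, minus strand, 145 to 100 bases before the start) held 2 overlapping matches, and Stat2 (chr10:128270261-128270300, plus strand, 237 to 198 bases before the start) held 1. A match describes letters only and is not a measured binding site, and a window without a match says nothing about ISGF3.

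All values are deposited expression levels on the log2 scale, array medians ran from 5.48 to 5.57, and a typical standard error (SE) of a group difference was 0.080. Mef2c averaged 10.39 ± 0.16 (SD, n = 6) in control arrays and 7.91 ± 0.21 in Mef2c shRNA arrays. Nup210 lay close to background in every group, at 5.75 ± 0.09 in control and 5.65 ± 0.11 in Nup210 shRNA arrays, so its own level is a weak check of that label. All 8 muscle markers were well expressed, with Myh3 lower in both shRNA groups (by 0.20 with Nup210 and 0.39 with Mef2c shRNA), Ckm and Mymk lower with Nup210 shRNA (by 0.39 and 0.14; Mymk not without its arrays 2, 4 and 5, adjusted p = 0.0716), and Acta1 lower with Mef2c shRNA (by 0.16). Directly, Ckm was lower (-0.30) and Myh3 higher (0.18) with Nup210 than with Mef2c shRNA, as was Myog (0.17). The Myog call ended when Nup210 shRNA array 2, 4 or 6, or Mef2c shRNA array 1, 2, 3 or 5, was left out (adjusted p 0.0526 to 0.0772). It was also lost with only those groups fitted (adjusted p = 0.0701) and without Nup210 shRNA arrays 2, 4 and 5 (adjusted p = 0.179). Markers of other cells that carry interferon genes were mostly at background: 1 of 9 immune markers (Cd68, 6.30) and 1 of 4 endothelial markers (Kdr, 5.70) lay above it, the leukocyte gene Ptprc stood at 3.45, and none differed between groups at an adjusted p under 0.05. The mean level of the immune list ran from 4.74 to 4.98 in control, 4.92 to 5.06 in Nup210 shRNA and 4.87 to 5.05 in Mef2c shRNA arrays, and its part in the results was not tested.

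Background was read from 1088 olfactory receptor (Olfr) genes, which are little used outside sensory tissue: their median level was 3.36 and their 95th percentile 5.47. A total of 23 of the 33 genes (69.7%) averaged above that 95th percentile, against 13007 of 22180 genes (58.6%). None lay below the Olfr median. Most of the 23 were only just above background, since 9 exceeded the Olfr 99th percentile of 6.14 (Stat2, Ifi35, Eif2ak2, Irf9, Rigi, Parp9, Tap1, Xaf1 and Parp14). Only Stat2 and Ifi35 exceeded the brightest Olfr gene, at 7.61. The 10 genes not above the 95th percentile were Isg15, Oasl2, Oas2, Mx1, Mx2, Rsad2, Dhx58, Gbp3, Cxcl10 and Psmb9, which include several genes often read as signs of an active interferon response. At the line itself, Usp18 at 5.49 was the lowest gene inside and Psmb9 at 5.39 the highest outside. Taken group by group, 22 genes were above the line in control arrays and 23 in each of the other groups, the difference being Usp18. The line is a guide rather than a limit of expression, because probe sets differ in their own background.

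**Figure D1:**
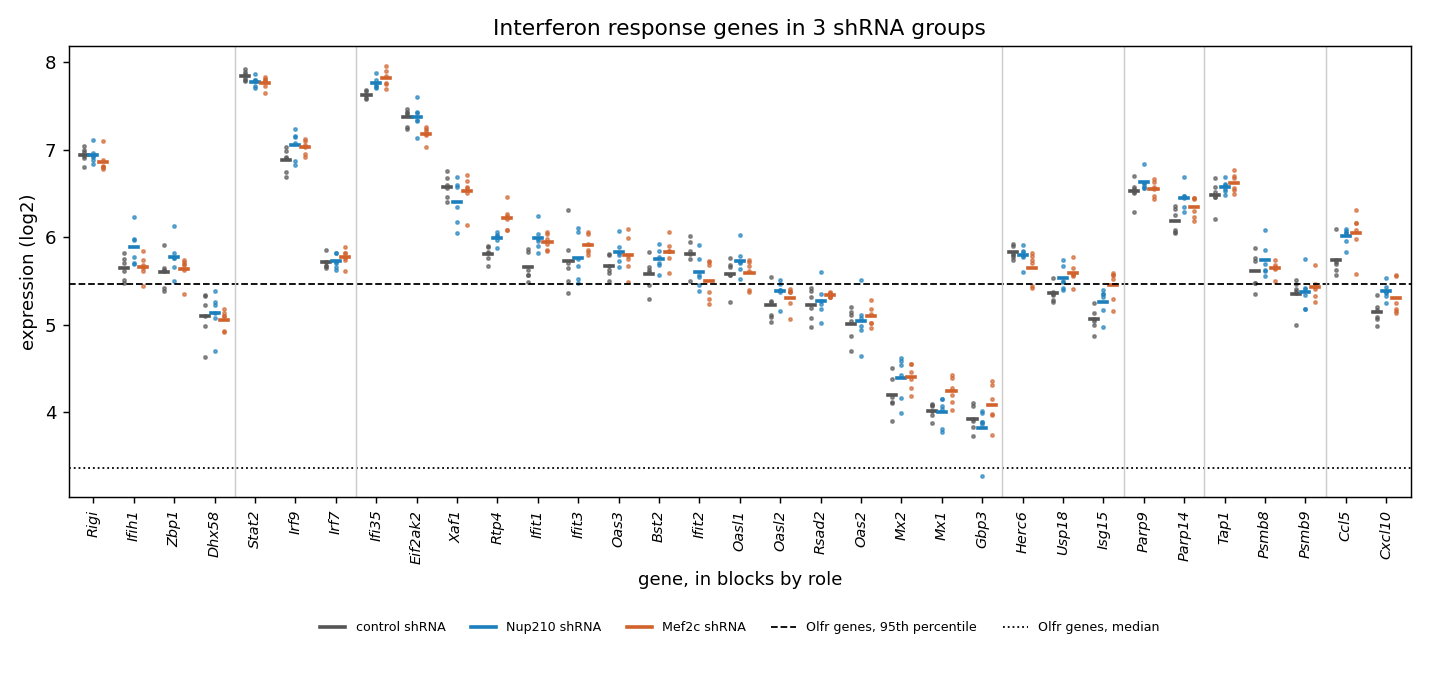
Expression (log2) of the 33 measured interferon response genes, in blocks by role, with 1 point per array, a bar at each group mean (6 arrays per group) and lines at the median (3.36) and 95th percentile (5.47) of the Olfr genes. The 3 groups lie close together for most genes, and Mx1, Mx2 and Gbp3 sit nearest to the Olfr median.

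Differences between the hairpins were small. With Nup210 shRNA against control, 2 of the 33 genes were called higher (Ifit1 and Parp14, 6.06%, against 3.05% of all genes) and 0 lower (against 5.11% of all genes) at a limma adjusted p under 0.05. With Mef2c shRNA against control, 5 were called higher (Rtp4, Isg15, Ifit1, Usp18 and Ifi35, 15.2%, against 4.34% of all genes) and 0 lower (against 6.42%). When the 2 shRNA groups were set against each other, 0 were higher in Nup210 shRNA arrays (against 7.1% of all genes) and 2 were lower, Rtp4 and Mx1 (against 6.93%). At an unadjusted limma p under 0.05, 10 of the 33 genes were higher and 0 lower with Nup210 shRNA (9.91% and 10.3% of all genes). With Mef2c shRNA 9 of the 33 were higher and 3 lower (11.6% and 11.4% of all genes). Directly, 2 of the 33 were higher and 4 lower at that threshold (11.9% and 12.4% of all genes). Both comparisons with control use the same 6 control arrays, so they are not independent of each other.

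Across the 33 genes the differences from control ran from -0.21 (Ifit2) to 0.33 (Ifit1) with Nup210 shRNA and from -0.30 (Ifit2) to 0.41 (Rtp4) with Mef2c shRNA. The largest change, that of Rtp4, was 1.33-fold. With Nup210 shRNA 26 of 33 differences were positive (78.8%) with a median of 0.13, while over all genes 55.1% were positive with a median of 0.02 and over the Olfr genes 52.6% with a median of 0.01. With Mef2c shRNA 26 of 33 were positive with a median of 0.11, against 56.6% and 0.02 over all genes and 62.7% and 0.05 over the Olfr genes. Between the 2 shRNA groups the median was 0.01, and 17 of 33 differences were positive. Centring each array on its own median changed the split of all calls with Mef2c shRNA from 963 higher and 1423 lower to 592 and 1601, while 4 of the 5 gene calls in this list remained.

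**Figure D2:**
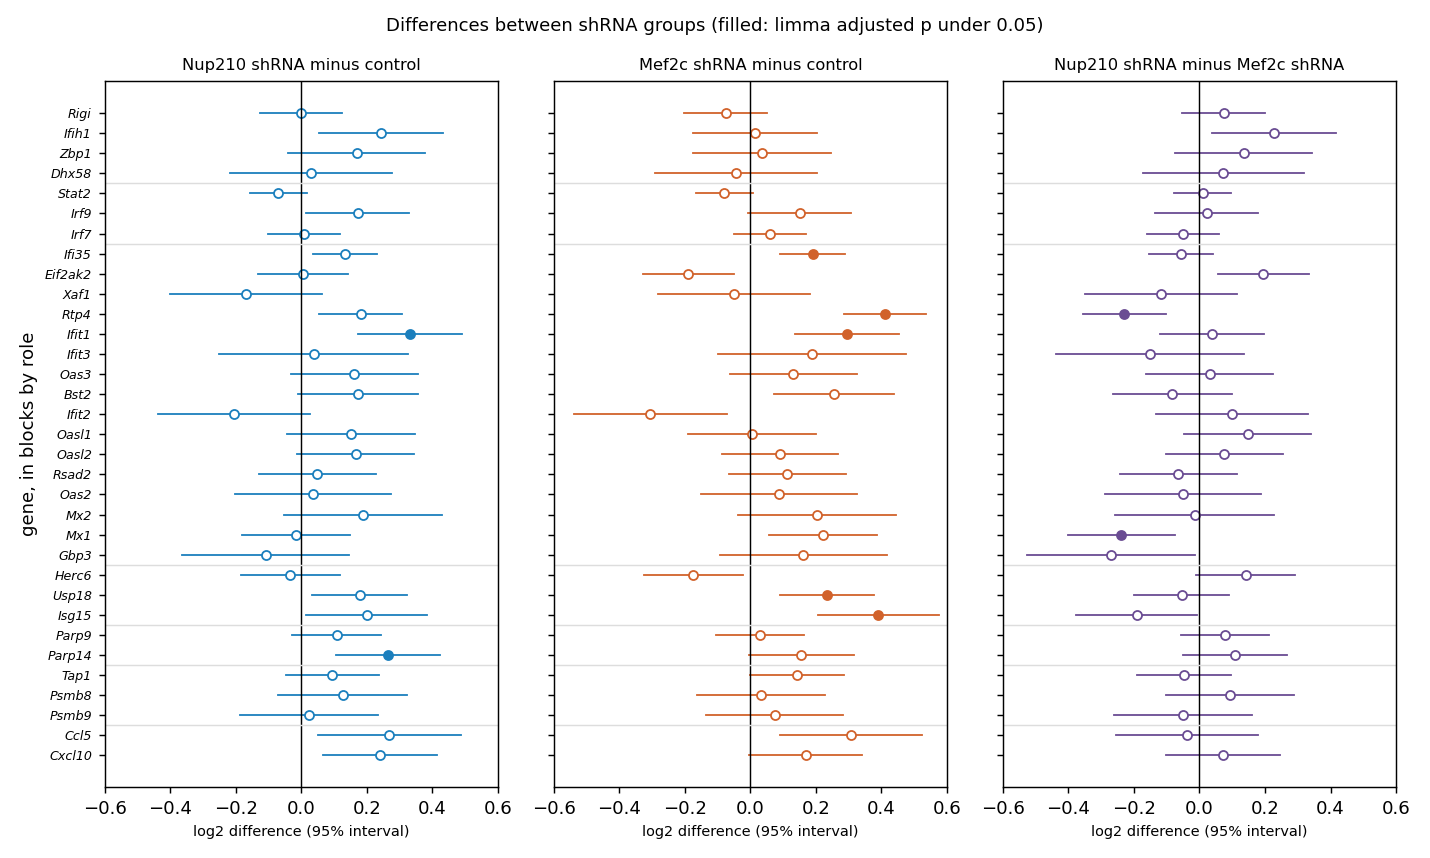
Log2 differences between groups for the 33 genes, in blocks by role, with 95% confidence intervals from the limma fit and filled points for adjusted p under 0.05. Filled points lie at 0.19 to 0.41 in the comparisons with control and at -0.24 and -0.23 in the direct comparison, and most other intervals cross 0.

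The 4 sensors of this list, Rigi, Ifih1, Zbp1 and Dhx58, were not called in any comparison. Rigi, the gene of RIG-I, a helicase that recognises RNA with a triphosphate at its 5′ end, was the brightest of them. It ran from 6.80 to 7.05 with a median of 6.95 in control arrays, from 6.84 to 7.11 (median 6.92) with Nup210 shRNA and from 6.78 to 7.11 (median 6.81) with Mef2c shRNA. The groups overlapped, though 5 of the 6 Mef2c shRNA arrays lay at or below 6.89 and only array 2 of that group reached 7.11. Its difference from control was -0.00059 ± 0.060 (SE) with Nup210 shRNA (95% interval -0.13 to 0.13) and -0.07 ± 0.060 with Mef2c shRNA (95% interval -0.20 to 0.05), which became -0.12 without Mef2c shRNA array 2 (adjusted p = 0.174). Ifih1, the gene of MDA5, which binds long double-stranded RNA, averaged 5.65 ± 0.14 in control, 5.89 ± 0.21 with Nup210 shRNA and 5.66 ± 0.13 with Mef2c shRNA, and its difference of 0.24 with Nup210 shRNA did not pass (adjusted p = 0.116). Zbp1, a sensor of Z-form nucleic acid, averaged 5.60 ± 0.19, 5.77 ± 0.21 and 5.64 ± 0.14 in the same order. Dhx58, the gene of LGP2, a helicase that tunes the other sensors, was at background with 5.10 ± 0.27, 5.13 ± 0.24 and 5.06 ± 0.11.

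The signalling genes were all above background and none was called. Stat2, which carries the transactivating part of ISGF3, was the brightest of all 33 genes. It ran from 7.79 to 7.93 (median 7.84) in control, from 7.71 to 7.87 (median 7.79) with Nup210 shRNA and from 7.65 to 7.83 (median 7.80) with Mef2c shRNA arrays. Control arrays sat slightly higher, but the groups overlapped, and the differences of -0.07 ± 0.042 (adjusted p = 0.384) and -0.08 ± 0.042 (adjusted p = 0.272) did not pass. Irf9, the DNA-binding subunit of ISGF3, averaged 6.88 ± 0.13 in control, 7.05 ± 0.17 with Nup210 shRNA and 7.03 ± 0.08 with Mef2c shRNA, with adjusted p-values of 0.194 and 0.241. Irf7, the factor that amplifies interferon transcription, averaged 5.71 ± 0.07, 5.72 ± 0.08 and 5.77 ± 0.09.

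The ISG15 system was measured by 3 genes, of which 2 were called higher with Mef2c shRNA (against 4.34% of all genes). ISG15 is a ubiquitin-like protein that is joined to other proteins, and USP18 removes it and also restrains the type I interferon receptor. Isg15 ran from 4.87 to 5.25 (median 5.06) in control, from 4.98 to 5.40 (median 5.33) with Nup210 shRNA and from 5.16 to 5.60 (median 5.54) with Mef2c shRNA arrays. Its group means stayed below the Olfr 95th percentile, although 4 of the Mef2c shRNA arrays lay above it, and the control and Mef2c shRNA arrays overlapped. All 6 Mef2c shRNA arrays lay above the control mean, and the difference of 0.39 ± 0.088 (1.31-fold, adjusted p = 0.00609) was kept in all 27 alternatives that tested it. With Nup210 shRNA the difference of 0.20 ± 0.088 did not pass (adjusted p = 0.201), and neither did the direct difference of -0.19 ± 0.088 (adjusted p = 0.184).

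Usp18 ran from 5.26 to 5.53 (median 5.35) in control, from 5.39 to 5.75 (median 5.50) with Nup210 shRNA and from 5.41 to 5.77 (median 5.58) with Mef2c shRNA arrays. The groups overlapped, with all 6 Mef2c shRNA arrays above the control mean. The rise with Mef2c shRNA was 0.23 ± 0.069 (1.18-fold, adjusted p = 0.0344). This call ended when control array 1, 3, 4, 5 or 6, or Mef2c shRNA array 1, 2, 5 or 6, was left out (adjusted p 0.0553 to 0.0813), under renewed quantile normalization (0.0622), under median centring (0.0725) and without control arrays 4 and 6 (0.131). Herc6, the main ligase that attaches ISG15 in mouse, ran from 5.74 to 5.93 (median 5.80), from 5.60 to 5.91 (median 5.81) and from 5.42 to 5.82 (median 5.72) in control, Nup210 and Mef2c shRNA arrays. It pointed the other way with Mef2c shRNA, at -0.17 ± 0.072, and did not pass (adjusted p = 0.144).

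Antiviral effectors made up 16 of the measured genes, 10 of them above background. With Nup210 shRNA 1 rose (6.25%) and 0 fell, against 3.05% and 5.11% of all genes. With Mef2c shRNA 3 rose (18.75%) and 0 fell, against 4.34% and 6.42%. A single call in a set of 16 genes carries little weight, and no difference from those shares was tested. Rtp4, a chaperone of taste and opioid receptors that is strongly induced by interferon, had the largest difference of the list. It ran from 5.67 to 5.90 (median 5.83) in control, from 5.88 to 6.06 (median 6.01) with Nup210 shRNA and from 6.08 to 6.46 (median 6.22) with Mef2c shRNA arrays. Every Mef2c shRNA array lay above every array of the other groups; in the direct comparison Rtp4 was the 1 gene of the list lower without overlap (against 4.12% of all genes), and 0 were higher (against 4.5%). The rise with Mef2c shRNA was 0.41 ± 0.060 (1.33-fold, adjusted p = 0.000154) and was kept in all 28 alternatives, from 0.36 to 0.44. Rtp4 was also lower in Nup210 than in Mef2c shRNA arrays, by -0.23 ± 0.060 (adjusted p = 0.0134). This no longer passed (adjusted p = 0.111) once Nup210 shRNA arrays 2, 4 and 5 were left out. Those arrays had the lowest weights in the alternative fit with array weights, while the main fit used no weights. The difference of Rtp4 from control with Nup210 shRNA, 0.18 ± 0.060, did not pass (adjusted p = 0.0748).

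Ifit1 was called against control with each shRNA, in comparisons that share the control arrays. It encodes a protein that binds viral RNA lacking the host's cap methylation and blocks its translation. Ifit1 ran from 5.49 to 5.86 (median 5.59) in control, from 5.82 to 6.25 (median 5.96) with Nup210 shRNA and from 5.85 to 6.06 (median 5.95) with Mef2c shRNA arrays. Control arrays 2 and 5, at 5.86 and 5.83, reached into the range of the others, and all 12 shRNA arrays lay above the control mean. The rise was 0.33 ± 0.076 (1.26-fold, adjusted p = 0.00879) with Nup210 shRNA and 0.30 ± 0.076 (1.23-fold, adjusted p = 0.0152) with Mef2c shRNA. Without control arrays 4 and 6 neither rise passed (0.27, adjusted p = 0.0744, and 0.23, adjusted p = 0.115). These arrays were doubted in an earlier analysis of these data, for a reason not stated in the sources used. Their weights in the fit with array weights were 0.94 and 1.04. Leaving out Nup210 shRNA arrays 2, 4 and 5 also ended the Nup210 call (adjusted p = 0.113).

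Ifi35, an interferon-induced leucine zipper protein, was the brightest effector and had the tightest controls. It ran from 7.58 to 7.68 (median 7.63) in control, from 7.70 to 7.88 (median 7.74) with Nup210 shRNA and from 7.70 to 7.95 (median 7.81) with Mef2c shRNA arrays. No control array reached the lowest array of either other group. Of all genes, 1.92% were higher without overlap with Nup210 shRNA and 2.97% with Mef2c shRNA; in this list that held for Ifi35 alone with Nup210 shRNA and for Ifi35 and Rtp4 with Mef2c shRNA, while 0 genes of the list were lower without overlap (against 3.71% and 4.77% of all genes). The difference of 0.19 ± 0.047 (1.14-fold, adjusted p = 0.0123) with Mef2c shRNA passed, and that of 0.13 ± 0.047 with Nup210 shRNA did not (adjusted p = 0.0964). A second probe set of Ifi35 was dimmer, with means of 5.99, 6.05 and 6.12 in control, Nup210 and Mef2c shRNA arrays, and averaging both ended the Mef2c call (adjusted p = 0.0611).

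Mx1, the gene of a dynamin-like GTPase that traps viral nucleocapsids, was at background. It ran from 3.87 to 4.09 (median 4.04) in control, from 3.78 to 4.15 (median 4.05) with Nup210 shRNA and from 4.03 to 4.42 (median 4.23) with Mef2c shRNA arrays. The arrays of the 2 shRNA groups overlapped. Mx1 was lower with Nup210 than with Mef2c shRNA by -0.24 ± 0.078 (adjusted p = 0.0498), a call at the edge of the threshold that was lost in 23 of 27 alternatives (adjusted p 0.0511 to 0.149). These include leaving out any control array, Nup210 shRNA array 1, 4, 5 or 6, or Mef2c shRNA array 1, 3, 5 or 6. Its difference of 0.22 ± 0.078 from control with Mef2c shRNA did not pass (adjusted p = 0.0816).

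The remaining effectors did not pass in any comparison. Eif2ak2, the gene of the kinase PKR, which halts translation on binding double-stranded RNA, averaged 7.37 ± 0.09 in control, 7.38 ± 0.15 with Nup210 shRNA and 7.18 ± 0.08 with Mef2c shRNA (-0.19 ± 0.066, adjusted p = 0.0771). Ifit2, a neighbour and relative of Ifit1, pointed opposite to it, with 5.81 ± 0.18, 5.60 ± 0.20 and 5.50 ± 0.23 in the same order. Its differences from control were -0.21 ± 0.111 (adjusted p = 0.321) and -0.30 ± 0.111 (adjusted p = 0.0918). Bst2, the gene of tetherin, which holds budding virus particles at the cell surface, averaged 5.58 ± 0.18, 5.75 ± 0.13 and 5.83 ± 0.16, with an adjusted p of 0.0701 for Mef2c shRNA. Xaf1, which promotes cell death, averaged 6.58 ± 0.13, 6.41 ± 0.26 and 6.53 ± 0.20. Ifit3, the partner that stabilises IFIT1, averaged 5.73 ± 0.33, 5.77 ± 0.27 and 5.92 ± 0.11.

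The 2-5A synthetases, which activate the antiviral nuclease RNase L, and their relatives lay near the background line. Oas3 averaged 5.67 ± 0.12 in control, 5.83 ± 0.14 with Nup210 shRNA and 5.80 ± 0.22 with Mef2c shRNA. Oasl1 averaged 5.58 ± 0.17, 5.73 ± 0.17 and 5.59 ± 0.16 in that order. Oasl2 averaged 5.22 ± 0.19, 5.39 ± 0.12 and 5.31 ± 0.14. The next genes were dimmer. Oas2 averaged 5.01 ± 0.19, 5.05 ± 0.28 and 5.10 ± 0.12. Rsad2, the gene of viperin, which makes a chain-terminating nucleotide, averaged 5.22 ± 0.18, 5.27 ± 0.19 and 5.34 ± 0.03. Mx2, a relative of Mx1, averaged 4.20 ± 0.22, 4.39 ± 0.26 and 4.40 ± 0.15. Gbp3, a guanylate-binding GTPase and the dimmest gene of the list, averaged 3.92 ± 0.14, 3.82 ± 0.28 and 4.09 ± 0.23. Its direct difference of -0.27 ± 0.122 was the largest of the list in that comparison in size and did not pass (adjusted p = 0.175).

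**Figure D3:**
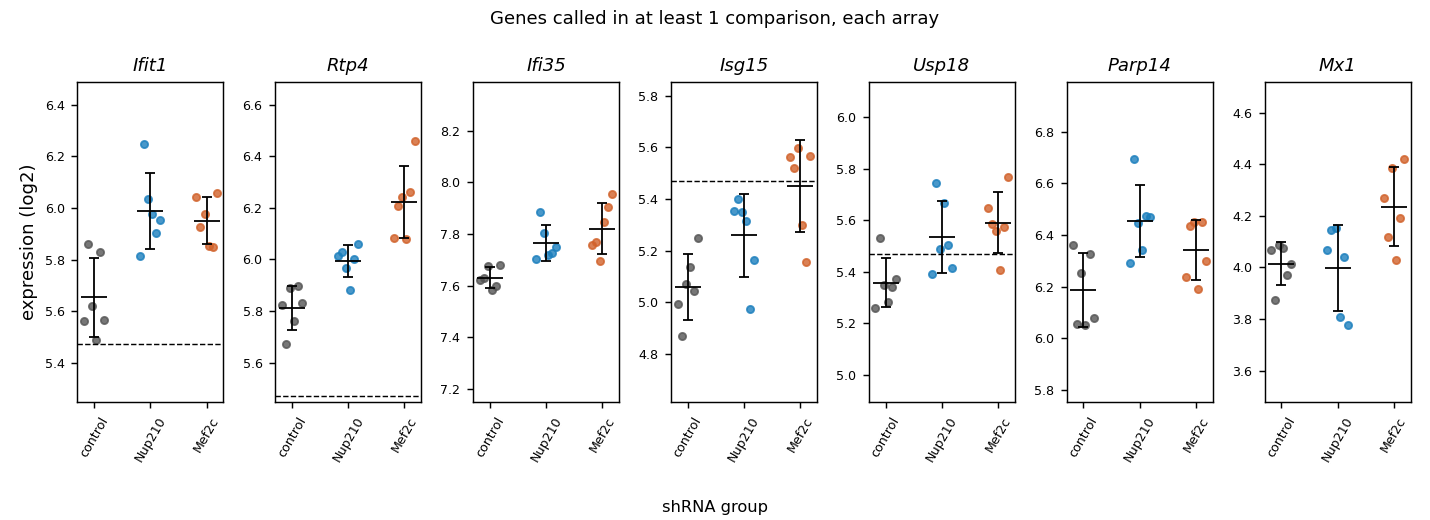
Expression (log2) on each array of the 7 genes called in at least 1 comparison, with 1 point per array, bars for the group mean and SD (n = 6), and the Olfr 95th percentile (5.47) as a dashed line where it falls in the range. Rtp4 is the gene whose Mef2c shRNA arrays (6.08 to 6.46) clear both other groups, and Ifi35 the one whose control arrays (7.58 to 7.68) lie under both.

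Of the 2 ADP-ribosylation genes 1 was called higher with Nup210 shRNA (against 3.05% of all genes). A single call among 2 genes carries little weight. PARP14 and PARP9 add or recognise ADP-ribose on proteins during interferon signalling. Parp14 ran from 6.05 to 6.36 (median 6.17) in control, from 6.29 to 6.69 (median 6.46) with Nup210 shRNA and from 6.19 to 6.45 (median 6.37) with Mef2c shRNA arrays. The groups overlapped, with all 6 Nup210 shRNA arrays above the control mean. The rise with Nup210 shRNA was 0.27 ± 0.076 (1.20-fold, adjusted p = 0.0355), and the difference of 0.16 ± 0.076 with Mef2c shRNA did not pass (adjusted p = 0.227). Leaving out control array 2, 4 or 6, or array 2, 3, 5 or 6 of the Nup210 shRNA group, ended the call (adjusted p 0.0544 to 0.0853), as did 5 other alternatives (0.055 to 0.264). Parp9, the brighter of the pair, ran from 6.29 to 6.70 (median 6.54), from 6.56 to 6.84 (median 6.61) and from 6.43 to 6.67 (median 6.56) in control, Nup210 and Mef2c shRNA arrays. Its differences from control of 0.11 ± 0.064 (adjusted p = 0.383) and 0.03 ± 0.064 (adjusted p = 0.848) did not pass. A probe set shared by Parp9 and Dtx3l, the gene between Parp9 and Parp14, averaged 7.34 ± 0.03, 7.54 ± 0.11 and 7.39 ± 0.14 and was not tested.

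Antigen-processing genes were not called. Tap1, a subunit of the transporter that carries peptides to MHC class I, ran from 6.20 to 6.67 (median 6.49) in control, from 6.49 to 6.69 (median 6.57) with Nup210 shRNA and from 6.49 to 6.77 (median 6.62) with Mef2c shRNA arrays. The groups overlapped, and the differences of 0.10 ± 0.068 (adjusted p = 0.484) and 0.14 ± 0.068 (adjusted p = 0.216) did not pass. Psmb8, an immunoproteasome protease, averaged 5.61 ± 0.20, 5.74 ± 0.20 and 5.64 ± 0.08. Psmb9, its partner subunit, averaged 5.35 ± 0.19, 5.38 ± 0.21 and 5.43 ± 0.14. Psmb9, Tap1 and Psmb8 are direct neighbours in the genome.

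The chemokines pointed up in both comparisons without passing. Ccl5 draws in T cells and monocytes. It ran from 5.57 to 6.09 (median 5.70) in control, from 5.83 to 6.10 (median 6.05) with Nup210 shRNA and from 5.58 to 6.31 (median 6.12) with Mef2c shRNA arrays. Control array 5 was the highest of its group and Mef2c shRNA array 4 the lowest of its own. The differences were 0.27 ± 0.104 (adjusted p = 0.136) and 0.31 ± 0.104 (adjusted p = 0.0677). They passed when Mef2c shRNA array 4 (adjusted p = 0.0448 and 0.00438) or control array 5 (0.0395 and 0.0167) was left out. With all arrays kept, the difference with Mef2c shRNA also passed with dim genes left out (0.0331) and with a robust trended prior (0.0431). Cxcl10, which draws in activated T cells, was at background with 5.14 ± 0.12, 5.38 ± 0.10 and 5.31 ± 0.20 in the same order of groups (adjusted p = 0.0888 with Nup210 shRNA and 0.235 with Mef2c shRNA).

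Several genes of the list are neighbours in the genome. Ifit2 and Ifit3 lie side by side and Ifit1 lies further along with 3 genes in between (Ifit1bl1, Ifit3b and Ifit1bl2, near copies whose RNA could reach the same probes), and of these Ifit1 was called, Ifit2 had negative differences that did not pass, and Ifit3 was not called. Parp14 was called with Nup210 shRNA and Parp9, separated from it by Dtx3l, was not; the difference between the neighbours' changes was not tested. The probe set shared by Oas1a and Oas1g averaged 3.88 ± 0.23 in control, 3.62 ± 0.41 with Nup210 shRNA and 3.87 ± 0.12 with Mef2c shRNA. That shared by Gbp2 and Gbp2b averaged 5.11 ± 0.05, 5.39 ± 0.14 and 5.48 ± 0.12. Neither shared set was tested.

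Arrays of a group could also differ in the whole list at once. The mean deviation of the 23 genes from their group means ran from -0.067 (array 4) to 0.066 (array 5) in control, from -0.030 to 0.036 with Nup210 shRNA and from -0.035 to 0.050 with Mef2c shRNA. Of the 23 genes, 7 to 17 lay above their group mean on any array. For the 23 genes the spread of the control arrays, from lowest to highest, was the widest of the 3 groups. Over all genes the mean deviation ran from -0.012 to 0.018, and 47.3% to 55.1% of genes lay above their group mean. Control arrays 4 (-0.011) and 5 (0.0081) were the lowest and highest of their group there too.

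**Figure D4:**
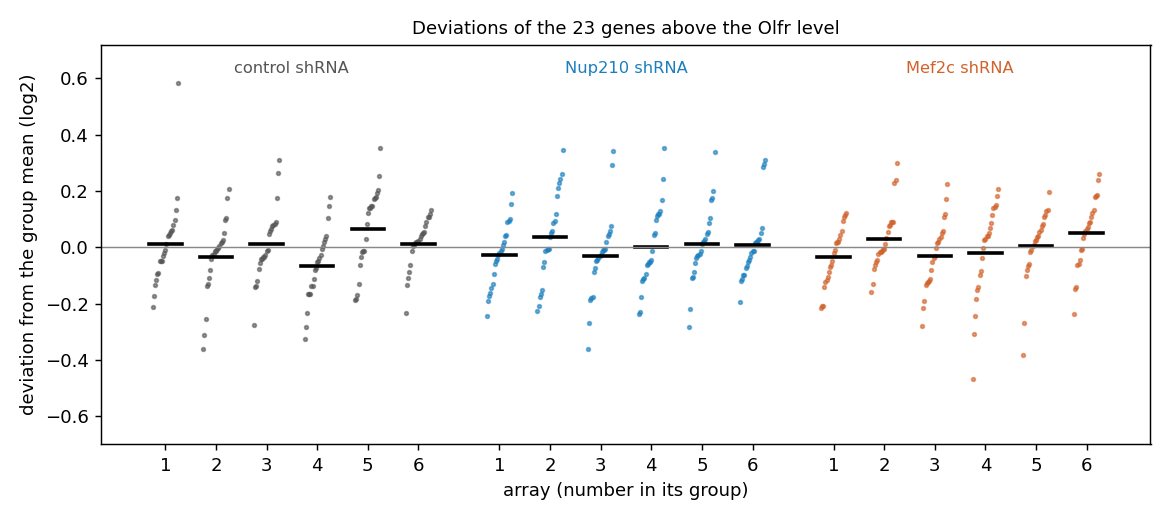
Deviation (log2) of each of the 23 genes above the Olfr level from its own group mean, on each of the 18 arrays, with a bar at the mean of the 23 genes. The bars stay within -0.067 and 0.066, while single genes spread more widely on every array.

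Around these genes, the rest of the pathway was read from lists of genes outside the 33. The shares of all genes called higher and lower are the background for each list. They were 3.05% and 5.11% with Nup210 shRNA, 4.34% and 6.42% with Mef2c shRNA, and 7.1% and 6.93% directly. In lists of 11 to 15 genes a single call carries little weight, and no difference from these shares was tested. Among 13 sensors and adaptors 0 were higher and 1 lower with Nup210 shRNA, 0 and 1 with Mef2c shRNA, and 1 and 3 in the direct comparison. Sting1, the adaptor for DNA sensing, fell by 0.27 with Nup210 shRNA (adjusted p = 0.00189) and was lower there than with Mef2c shRNA (-0.23, adjusted p = 0.00323). Neither passed once Nup210 shRNA arrays 2, 4 and 5 were left out (adjusted p = 0.0854 and 0.11). Cgas, the DNA sensor that acts through STING, fell by 0.51 with Mef2c shRNA (adjusted p = 6.77e-05), from 5.53 ± 0.07 to 5.02 ± 0.15, around the background line. Its direct difference was 0.48 (adjusted p = 7.05e-05). Myd88, the adaptor of Toll-like receptors, was lower with Nup210 than with Mef2c shRNA (-0.34, adjusted p = 0.0247). Leaving out Mef2c shRNA array 2, 5 or 6, or Nup210 shRNA array 2 or 4, ended that call (0.0561 to 0.0622). A fit of only the groups compared (0.0568) and one without Nup210 shRNA arrays 2, 4 and 5 (0.16) ended it as well.

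Of 15 interferon and receptor genes 0 were higher and 2 lower with Nup210 shRNA, 2 and 1 with Mef2c shRNA, and 0 and 2 directly. Ifnb1, the interferon made first in most cells, lay near the Olfr median at 3.67 ± 0.23, 3.84 ± 0.16 and 3.80 ± 0.13 in control, Nup210 and Mef2c shRNA arrays. Other interferon genes had probe sets above the Olfr 95th percentile, with means over all arrays of 7.67 for Ifna1, 7.19 for Ifnl2, 6.50 for Ifnl3 and 6.41 for Ifna4, and none of these 4 was called. Ifna2 (4.72), Ifne (4.79), Ifnk (3.61) and Ifng (5.28) lay below that line. Whether the 4 brighter probe sets read only their named genes was not tested. Ifnar1, a chain of the type I receptor, fell by 0.32 with Nup210 shRNA (adjusted p = 0.000238) and was lower there than with Mef2c shRNA (-0.28, adjusted p = 0.000355). Ifnar2, the other chain, rose by 0.15 with Mef2c shRNA (adjusted p = 0.0301), but not when control array 1, 4 or 5, or Mef2c shRNA array 2, 3 or 6, was left out (0.0518 to 0.0765). A fit of only the groups compared (0.0711) and median centring (0.122) ended that call too. Both chains of the type II receptor also differed with Mef2c shRNA. Ifngr1 fell by 0.33 (adjusted p = 0.00105), and Ifngr2 rose by 0.26 (adjusted p = 0.000713). Ifngr2 was lower with Nup210 shRNA than with Mef2c shRNA (-0.40, adjusted p = 4.68e-06). Its fall of -0.15 with Nup210 shRNA (adjusted p = 0.0456) was lost in 15 of 18 fits that left out 1 array, all but those without Mef2c shRNA array 3 or 5 or control array 5 (0.0511 to 0.111). That call was also lost in 6 of 10 other alternatives (0.0569 to 0.264), the highest without Nup210 shRNA arrays 2, 4 and 5.

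Among 12 signal transducers and regulators 0 were higher and 1 lower with Nup210 shRNA, 1 and 0 with Mef2c shRNA, and 0 and 3 directly. Ptpn11, the phosphatase SHP2, fell by 0.20 with Nup210 shRNA (adjusted p = 0.00607; 0.158 when Nup210 shRNA arrays 2, 4 and 5 were left out). Pias1, a SUMO ligase that restrains cytokine signalling, rose by 0.14 with Mef2c shRNA (adjusted p = 0.0198), lost under median centring (0.0843) and without control arrays 4 and 6 (0.0903). In the direct comparison Pias1 was lower with Nup210 shRNA (-0.19, adjusted p = 0.00156), as were Irf1, an interferon-induced transcription factor (-0.19, adjusted p = 0.0125), and Ptpn11 (-0.15, adjusted p = 0.0244). The last of these ended when Mef2c shRNA array 3, 4 or 6, or Nup210 shRNA array 2, was left out (0.0516 to 0.0612). That call also ended in a fit of only the groups compared (0.0676) and under median centring (0.0827). It ended too without Nup210 shRNA arrays 2, 4 and 5 (0.285).

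Of 42 further interferon-stimulated genes, 21 of them above background, 1 was higher and 4 lower with Nup210 shRNA, 3 and 2 with Mef2c shRNA, and 2 and 6 directly. These counts stand beside the same shares of all genes (3.05% and 5.11%, 4.34% and 6.42%, and 7.1% and 6.93%), and no difference from them was tested. Isg20, an exonuclease, fell by 0.66 with Nup210 shRNA (adjusted p = 3.71e-05), from 7.97 ± 0.10 to 7.30 ± 0.21, and differed by -0.70 directly (adjusted p = 7.07e-06). Gbp9, a guanylate-binding protein, rose by 0.64 with Nup210 shRNA (adjusted p = 0.00136) and differed by 0.63 directly (adjusted p = 0.000779). Ifitm1, which blocks virus entry, was at background at 4.43 ± 0.22 in control and 3.89 ± 0.16 with Nup210 shRNA (-0.53, adjusted p = 0.00476), and differed by -0.75 directly (adjusted p = 0.000111). The calls of Gbp9 and Ifitm1 against control ended when Nup210 shRNA arrays 2, 4 and 5 were left out (0.056 and 0.138). With Mef2c shRNA Ifi30, a lysosomal thiol reductase, fell by 0.29 (adjusted p = 0.00365) and Tor3a, a torsin, by 0.21 (adjusted p = 0.0078). Trim21, a cytosolic antibody receptor, rose by 0.24 (adjusted p = 0.0335), but not when control array 3, 4 or 5, or Mef2c shRNA array 2, 3 or 5, was left out (0.054 to 0.0845). That call also ended in 5 of 10 other alternatives (0.0502 to 0.115).

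Among 11 antigen-presentation genes 1 was higher and 1 lower with Nup210 shRNA, 0 and 1 with Mef2c shRNA, and 2 and 1 directly. H2-T23, a non-classical MHC class I gene, fell by 0.52 with Nup210 shRNA (adjusted p = 0.012), and Erap1, which trims peptides, rose by 0.24 (adjusted p = 0.00543). Neither passed when Nup210 shRNA arrays 2, 4 and 5 were left out (0.25 and 0.0762). H2-K1, a classical MHC class I gene, fell by 0.37 with Mef2c shRNA (adjusted p = 0.018), and did not pass in a fit of only those groups (0.0532). Directly, H2-T23 differed by -0.50, H2-K1 by 0.38 and Erap1 by 0.25 (adjusted p = 0.00832, 0.0108 and 0.00217). Without Nup210 shRNA arrays 2, 4 and 5 the direct difference of H2-T23 was -0.29 (0.168) and that of H2-K1 0.39 (0.0767), and neither passed. MHC class I genes are near copies of each other, so their probes may share signal. The 3 constitutive proteasome subunits that Psmb8, Psmb9 and their relatives replace were not called in any comparison.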

How the data were processed

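Expression was measured on 18 single-colour arrays, 6 per group, with groups and array numbers taken from the sample titles. The deposited values are log2 expression per probe set, made by the authors with RMA and Partek per the submitters' processing notes; their versions and settings, and any scan batches, are not stated there or in the labels. RMA equalises array distributions and compresses differences of dim genes. Of 41345 probe sets, 23521 had 1 symbol, 1814 several and 16010 none in the platform annotation; the RefSeq table of GRCm38.p6 held 23328 of the singly named and changed 0 symbols. Each of 22180 genes was represented by its brightest singly named probe set.

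All genes were fitted with limma 3.58.1 in R 4.3.3 (lmFit and eBayes, 1 mean per group, 15 residual degrees of freedom), and every adjusted p is Benjamini-Hochberg over all 22180 genes, called under 0.05. The code was first tested on simulated data holding 200 changed genes. Every gene of the list was named, with full values for called genes and the brightest of each role; in the other pathway lists, the 3 largest called differences were named. The genes and lists were chosen with earlier results of these data known. Alternatives were a block for the replicate number, fits of only the groups compared, median centring, renewed quantile normalization, averaged probe sets, dim genes left out, array weights, a robust trended prior, a stricter threshold, other background lines, each array left out, and fits without Nup210 shRNA arrays 2, 4 and 5 or control arrays 4 and 6. The number of arrays limits the precision.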

Additional observations from a re-analysis of the deposited data

Results flagged for a closer look

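In groups of 6 arrays, 8 of 99 gene-by-group sets held an array far from the other 5 (Dixon's criterion, gap over range above 0.625), where chance gives about 1 in 20. In the control group, Irf7 was 5.86 on array 5 against 5.65 to 5.72 on the others, Ccl5 was 6.09 on array 5 against 5.57 to 5.74, and Psmb9 was 4.99 on array 4 against 5.36 to 5.51. With Nup210 shRNA, Gbp3 was 3.26 on array 3 against 3.86 to 4.01, and Parp9 was 6.84 on array 5 against 6.56 to 6.62. With Mef2c shRNA, Xaf1 was 6.14 on array 5 against 6.51 to 6.71, Rigi was 7.11 on array 2 against 6.78 to 6.89, and Zbp1 was 5.36 on array 3 against 5.62 to 5.74. None of these 8 genes was called in a comparison of all arrays.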

How the results depend on the processing

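No difference of a called gene changed direction in any alternative, the count lower with Nup210 shRNA stayed at 0, and the cause of the changes below was not tested. Genes higher with Nup210 shRNA (2) became 1 at an adjusted p under 0.01, 1 under median centring, 4 with dim genes left out, 1 with array weights, 0 without Nup210 shRNA arrays 2, 4 and 5, 0 without control arrays 4 and 6, and 1 to 3 with each array left out. Genes higher with Mef2c shRNA (5) became 2 under 0.01, 3 without control arrays 4 and 6, and 4 to 8 with each array left out; the 8 came without Mef2c shRNA array 4 and added Bst2, Ccl5 and Mx1. Genes lower with Mef2c shRNA (0) became 1 with only the groups compared, 2 with dim genes left out (Eif2ak2 and Ifit2), 1 with array weights, 1 without Nup210 shRNA arrays 2, 4 and 5, and 0 to 1 with each array left out (1 without control array 2 or array 2 or 4 of the Nup210 shRNA group). Genes higher in Nup210 than in Mef2c shRNA arrays (0) became 1, Eif2ak2, under renewed quantile normalization, 1 with dim genes left out, 1 with the trended prior, 1 with array weights and 0 to 1 with each array left out (1 without Nup210 shRNA array 4). Genes lower there (2) became 0 under 0.01, 0 without Nup210 shRNA arrays 2, 4 and 5, and 1, Rtp4, with the replicate block, with only the groups compared, under quantile normalization, under centring, with dim genes left out, with averaged probe sets, with the trended prior, with array weights and without control arrays 4 and 6; leaving out each array gave 1 to 2. With the replicate number as a block, 3 genes were higher with Nup210 shRNA (adding Rtp4) and 6 with Mef2c shRNA (adding Bst2), and over all genes 811 were higher and 1410 lower with Nup210 shRNA, 1221 and 1641 with Mef2c shRNA. The labels do not say that a number marks a shared culture or batch, and the numbers missed the criterion for pairing (every pair over 0.1): same-numbered arrays correlated at -0.178 to 0.223, over 0.1 in 6 of 18 pairs. In 22 of 36 choices among the 6 arrays of another group an array correlated best with its own number, a hint of shared structure from the data and not from the design. Of the 33 genes, 23 lay above the Olfr 95th percentile in every fit that left out 1 array; with all arrays, 9 lay above the 99th. Signal over background limits the 10 dim genes and those just above the line.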
